A study of Mus musculus with 19 samples.

Results

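The Wnt pathway genes described here are the genes for Wnt ligands, the proteins that secrete them, their receptors and co-receptors, their secreted antagonists and their immediate transducers, chosen by gene name on the array. The names taken were those of the Wnt, Frizzled (Fzd), Dickkopf (Dkk) and secreted Frizzled-related protein (Sfrp) families together with Lrp5, Lrp6, Rspo2, Rspo3, Rspo4, Lgr4, Lgr5, Lgr6, Ror1, Ror2, Ryk, Wif1, Axin1, Axin2, Znrf3, Rnf43, Ctnnb1, Tcf7, Tcf7l1, Tcf7l2, Lef1, Porcn, Wls and Notum. The ligand gene Wnt4 was left out and is not reported here, so no count or statement below covers it. The names taken gave 61 genes on 102 probes, out of 56605 probes in all. Of these, 44 genes on 70 probes were well above background on at least 4 arrays, the filter used here, and 20802 genes of the whole array passed it.

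Wnt ligands are lipid-modified secreted proteins that act over short distances on Frizzled receptors. With Lrp5 or Lrp6 as co-receptor they stabilise β-catenin, which then acts with TCF/LEF factors in the nucleus, and with Ror1, Ror2 or Ryk they act independently of β-catenin on cell shape and movement. In the mammary gland, Wnt ligands made by luminal cells are known as signals that act on the neighbouring basal stem cells, and progesterone is a known regulator of several of them.

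RNA of sorted CD24+CD29lo luminal cells (LCs) was hybridised to 19 single-colour arrays, 1 array for each C57Bl/6N female mouse of 8 weeks. There were 5 C451A-ERα mice treated with E2+Pg, 5 C451A-ERα mice treated with E2, 5 wild-type mice treated with E2+Pg and 4 wild-type mice treated with E2. All had been ovariectomised (at 24 days by the sample labels) and received, 10 days later, a 60-day pellet with 0.01 mg of estradiol (E2), alone or with 1.5 mg of progesterone (E2+Pg), for 21 days. C451A-ERα is a germline point mutation at the palmitoylation site of estrogen receptor α, so every cell of these mice carried it. The arrays could not show the mutation, and they measured RNA and not hormone levels.

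The arrays held between 26471 and 31258 probes well above background. Mouse L18 (C451A-ERα, E2+Pg) had the highest mean log2 signal of 10 basal and myoepithelial markers, 10.88, and the lowest of 8 hormone-sensing luminal markers, 10.76. Mice L4 and L27 (both C451A-ERα, E2) and L18 received the lowest weights, 0.24, 0.282 and 0.299, when each array was weighted by its fit to its group. All 6 pan-luminal keratin, adhesion and claudin genes were well above background on every array, and so were all 10 basal markers and all 6 fibroblast markers, which a CD24+CD29lo gate should largely remove. Of 8 immune markers, 6 were well above background on every array although cells were gated on CD45, and their mean was 9.40 in wild-type mouse L21 (E2+Pg), against 7.36 to 8.53 in the other 18 mice. In a bulk sample of sorted cells, fewer cells of a type and less RNA per cell cannot be told apart.

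Of the 61 genes, 17 did not pass the filter. They were the ligand genes Wnt2b, Wnt3, Wnt3a, Wnt7a, Wnt8a, Wnt8b, Wnt9b, Wnt10b and Wnt16, the antagonist genes Dkk1, Dkk2 and Dkk4, the R-spondin genes Rspo2, Rspo3 and Rspo4, the receptor gene Fzd9, and Axin2, a scaffold gene that is itself induced by β-catenin. None of them was well above background on more than 3 arrays, and neither probe of Axin2 was on any array. By role, 9 of 18 ligand genes passed, 9 of 10 Frizzled genes, 5 of 5 co-receptors and other receptors, both secretion genes, 5 of 8 genes of the R-spondin axis, 8 of 11 secreted antagonists and 6 of 7 transducers.

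Of the 44 genes that passed, 6 were well above background on only some arrays. Wnt6 was well above background in 3 of 5 C451A-ERα mice with E2+Pg, 5 of 5 C451A-ERα mice with E2, 0 of 5 wild-type mice with E2+Pg and 1 of 4 wild-type mice with E2. Wif1 was detected on 4 arrays, Sfrp1 and Lef1 on 5, Wnt10a on 17 and Sfrp5 on 18. Wif1, Sfrp1 and Wnt6 had at least 1 group with no array above background, so their fold changes are bounds only and are not given. They are counted among the 44 genes at their measured values, and medians are also given over the remaining 41.

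The sequences of 4 of the 60-base probes are shown: 2 cross exon junctions, 1 is the only probe of its gene, and 1 gave a different value from its partner. For Wnt5a, Dkk3 and Fzd5 the calls and values per mouse rest on a brighter probe, which is not printed. The place of the probes relative to the coding sequence was not determined here. Coordinates of the printed probes are those of the array design on mm9. The Wnt5a probe (chr14:29331746-29335708, plus strand) spans 3963 bases of the genome and the Dkk3 probe (chr7:119265170-119294157, minus strand) spans 28988, so both cross at least 1 exon junction. Fzd2 has this 1 probe only (chr11:102467613-102467672, plus strand), and the Fzd5 probe (chr1:64781972-64782030, minus strand) is the dimmer of the gene's pair.
Wnt5a: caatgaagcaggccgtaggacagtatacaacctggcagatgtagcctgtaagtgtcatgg
Fzd2: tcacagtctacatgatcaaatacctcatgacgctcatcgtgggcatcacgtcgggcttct
Dkk3: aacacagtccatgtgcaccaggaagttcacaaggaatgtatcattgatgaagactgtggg
Fzd5: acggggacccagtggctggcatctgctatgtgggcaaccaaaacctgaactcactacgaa

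A gene was called when limma gave a Benjamini-Hochberg adjusted p under 0.05 over all 20802 genes and the fold change was above 1.5. Signals below are quantile-normalised log2 values of the brightest probe of a gene, on a scale that differs from probe to probe, so levels are compared between mice and not between genes. Exact permutation tests over mice are two-sided, and with these group sizes cannot go below 0.00794 for 2 groups or 3.15e-05 for a mean over both genotypes or both treatments.

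To ask what progesterone added to E2, E2+Pg was compared with E2 in each genotype and over both. Averaged over both genotypes, 9 of the 44 Wnt pathway genes were called, 4 higher (Wnt5b, Tcf7l1, Fzd1 and Ror1) and 5 lower (Wnt5a, Wls, Porcn, Wnt11 and Ror2), where 3.77% of all genes were called, 1.62% higher and 2.15% lower. In C451A-ERα LCs, 5 were called, with Wnt5b, Tcf7l1 and Fzd3 higher and Wnt5a and Wls lower (all genes 2.45%, with 1.02% higher and 1.43% lower). In wild-type LCs, 3 were called, with Wnt5b and Tcf7l1 higher and Wnt5a lower (all genes 1.31%, with 0.582% higher and 0.731% lower). The median log2 fold change of the 44 genes was 0.09 in C451A-ERα, 0.00 in wild-type and 0.11 over both, against 0.00, 0.04 and 0.01 for all genes, and over the 41 genes it was 0.08, 0.06 and 0.10. Leaving out 1 of the mice L61, L27, L76 or L51 left 3 genes called in C451A-ERα (Wnt5b, Wnt5a and Wls), with 200 to 373 of all 20802 genes, against 510 with every mouse. Leaving out L52 left 1 in wild-type (Wnt5b) and 5 over both genotypes, with 28 and 578 of all genes, against 273 and 785. Without L18 there were 7 in wild-type, with 440 of all genes.

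The E2+Pg and E2 mice did not overlap in signal for 8 of the 44 genes in C451A-ERα LCs, where 5.02% of all genes did not overlap, and for 9 of the 44 in wild-type LCs, where 8.64% did not. The 8 were Fzd3, Fzd5, Fzd8, Ror2, Tcf7l1, Wls, Wnt5a and Wnt5b. The 9 were Fzd1, Ror1, Tcf7, Tcf7l1, Wif1, Wls, Wnt11, Wnt5a and Wnt5b. Wif1 is among them although no wild-type mouse with E2+Pg was above background for it.

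Wnt5b, a ligand closely related to Wnt5a, was higher with progesterone in both genotypes. Its log2 signal was 14.20, 13.88, 14.41, 13.93 and 13.85 in C451A-ERα mice with E2+Pg, against 12.20, 12.64, 12.14, 12.61 and 12.76 in C451A-ERα mice with E2. It was 13.38, 13.85, 13.51, 13.63 and 13.72 in wild-type mice with E2+Pg, against 12.70, 12.53, 12.59 and 12.13 in wild-type mice with E2. The 10 mice with progesterone all lay above the 9 without it. Progesterone gave a log2 fold change of 1.59 ± 0.16 (SE) in C451A-ERα and 1.13 ± 0.16 in wild-type, that is 3.01-fold and 2.19-fold, with limma adjusted p of 0.000135 and 0.00442. The second Wnt5b probe gave 1.68 and 1.20.

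Wnt5a, a ligand that signals largely without β-catenin and is known to restrain duct growth in the mouse mammary gland, moved the other way. It measured 9.80, 9.23, 9.85, 10.46 and 9.72 in C451A-ERα mice with E2+Pg, against 11.64, 10.59, 11.47, 11.54 and 11.69 in C451A-ERα mice with E2. It measured 9.88, 9.73, 10.28, 10.61 and 10.58 in wild-type mice with E2+Pg, against 11.45, 11.57, 11.62 and 11.59 in wild-type mice with E2. Groups did not overlap within either genotype, and the lowest mouse with E2 alone was L58 at 10.59. For Wnt5a the log2 fold change was -1.57 ± 0.23 in C451A-ERα and -1.34 ± 0.25 in wild-type, a fall of 2.97-fold and 2.53-fold, with limma adjusted p of 0.00205 and 0.014. The exon-spanning Wnt5a probe printed above gave -1.33 and -0.99, and the gene's remaining probe -1.71 and -1.26, each called in both genotypes. Without wild-type mouse L52 (E2) the wild-type adjusted p of the brightest probe became 0.0689.

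Wnt11, a further ligand known for β-catenin-independent signalling, was called only in the mean over both genotypes. It measured 7.71, 5.71, 7.09, 6.72 and 7.98 in C451A-ERα mice with E2+Pg, against 6.95, 8.16, 7.22, 8.29 and 7.86 in C451A-ERα mice with E2. It measured 6.45, 7.01, 6.65, 7.12 and 6.42 in wild-type mice with E2+Pg, against 8.28, 7.84, 7.83 and 7.68 in wild-type mice with E2. The wild-type groups were apart and the C451A-ERα groups overlapped. Its log2 fold change was -0.65 ± 0.35 in C451A-ERα (adjusted p = 0.328) and -1.18 ± 0.37 in wild-type (adjusted p = 0.115), and the limma test of the difference between them gave 0.52 ± 0.50 with adjusted p = 0.605. Over both genotypes the fall was 1.89-fold (adjusted p = 0.0328), and the second Wnt11 probe, at -0.64 ± 0.24, did not pass (adjusted p = 0.133). The call was lost under 14 of 28 alternatives (highest adjusted p = 0.087).

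The other 6 ligands that passed the filter were not called in any of these 3 comparisons. Wnt10a, a ligand that acts through β-catenin, had the lowest of their mean values, a log2 fold change of -0.86 ± 0.30 (limma adjusted p = 0.0964). Wnt9a was at 0.28, Wnt7b at -0.27, Wnt2 at -0.15 and Wnt1 at 0.01.

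**Figure D1:**
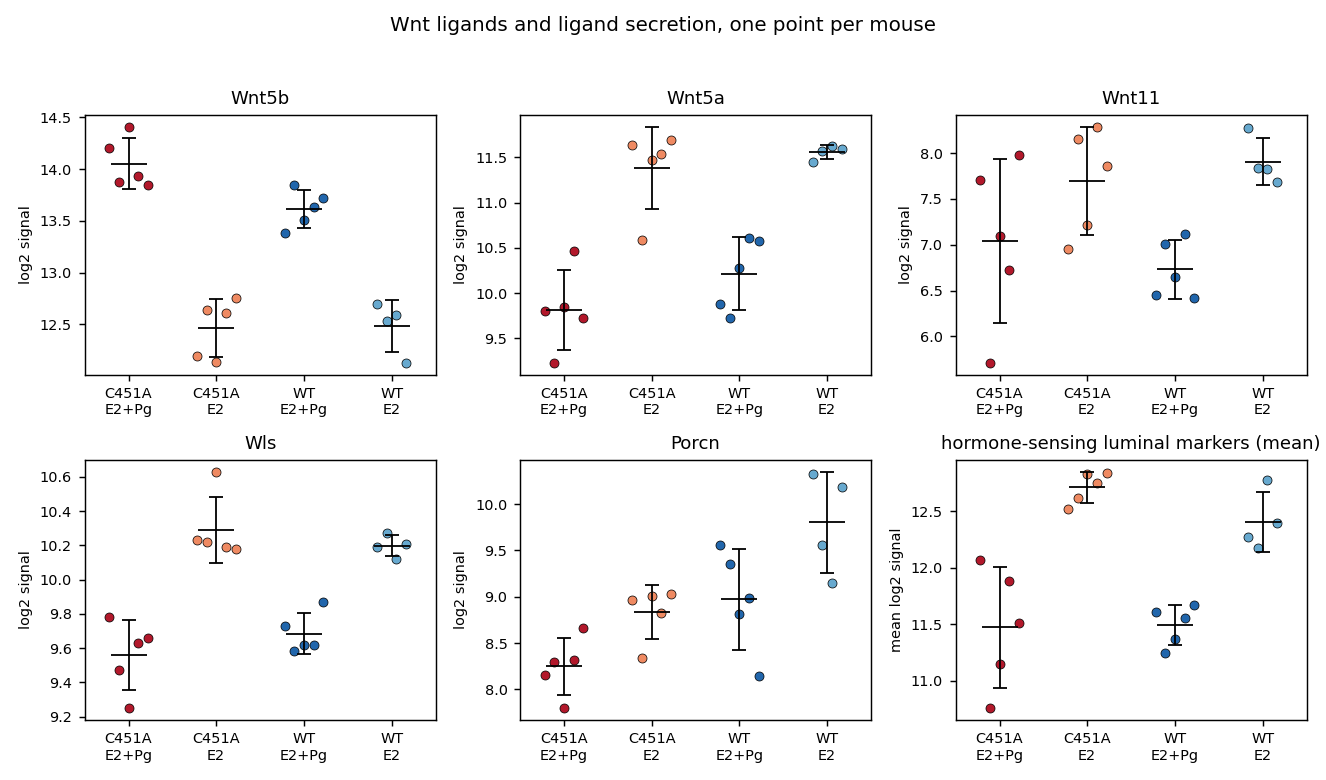
Quantile-normalised log2 signal (vertical axes) of the ligands Wnt5b, Wnt5a and Wnt11, the secretion genes Wls and Porcn, and the mean of 8 hormone-sensing luminal markers in each mouse, by genotype and treatment. Points are mice and bars the mean ± SD (n = 5, 5, 5 and 4); Wnt5b was at 13.38 or above in all mice with E2+Pg and at 12.76 or below in all mice with E2, and Wnt5a, Wls and the marker mean were lower with E2+Pg in both genotypes.

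Both genes that prepare Wnt ligands for release were lower with progesterone in the mean of both genotypes. Wls, the carrier that takes Wnt proteins to the cell surface, measured 9.78, 9.47, 9.25, 9.63 and 9.66 in C451A-ERα mice with E2+Pg, against 10.23, 10.22, 10.63, 10.19 and 10.18 in C451A-ERα mice with E2. It measured 9.73, 9.58, 9.62, 9.62 and 9.87 in wild-type mice with E2+Pg, against 10.19, 10.27, 10.12 and 10.21 in wild-type mice with E2. All 10 mice with progesterone were below all 9 mice without it. Wls had a log2 fold change of -0.73 ± 0.12 in C451A-ERα (limma adjusted p = 0.00272) and -0.51 ± 0.12 in wild-type (adjusted p = 0.0429), where the fold change of 1.43 was under the threshold of 1.5.

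The second Wls probe gave -0.46 ± 0.09 over both genotypes (adjusted p = 0.00515), also under 1.5-fold. The call of Wls over both genotypes (-0.62 ± 0.08) fell under 1.5-fold, with an adjusted p of 0.00127 or less, without L27, without L4, L18 and L27 together, and with the mean of its probes. Porcn, the enzyme of the endoplasmic reticulum that attaches the lipid to Wnt proteins, measured 8.16, 8.30, 7.80, 8.32 and 8.66 in C451A-ERα mice with E2+Pg, against 8.97, 8.34, 9.01, 8.83 and 9.03 in C451A-ERα mice with E2. It measured 9.56, 9.35, 8.81, 8.99 and 8.15 in wild-type mice with E2+Pg, against 10.32, 9.56, 9.15 and 10.18 in wild-type mice with E2. The groups overlapped within each genotype, and the Porcn signal was lower with progesterone on each of the 5 slides in C451A-ERα and each of the 4 slides with both groups in wild-type. Over both genotypes its log2 fold change was -0.71 ± 0.19 (limma adjusted p = 0.0269, exact permutation p = 0.00239), a call lost without 1 of L67, L61, L44 or L52, without L4, L18 and L27 together and with the slide as a block (highest adjusted p = 0.0777).

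Among receptors, Fzd1 and Ror1 were higher with progesterone and Ror2 lower. Fzd1, one of the Frizzled receptors, measured 8.28, 9.96, 8.83, 8.71 and 8.30 in C451A-ERα mice with E2+Pg, against 8.28, 7.79, 8.43, 8.06 and 7.80 in C451A-ERα mice with E2. It measured 9.07, 9.36, 9.53, 9.30 and 9.15 in wild-type mice with E2+Pg, against 8.34, 8.81, 8.41 and 8.05 in wild-type mice with E2. The wild-type groups were apart, and in C451A-ERα mouse L18 stood highest. Over both genotypes the rise was 1.75-fold (log2 0.81 ± 0.18, limma adjusted p = 0.0106).

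Ror1 and Ror2 are related receptor tyrosine kinases that bind Wnt5a. Ror1 measured 6.98, 8.53, 7.32, 6.84 and 7.13 in C451A-ERα mice with E2+Pg, against 6.81, 6.84, 7.06, 6.66 and 6.44 in C451A-ERα mice with E2. It measured 7.0, 7.32, 7.66, 7.21 and 7.66 in wild-type mice with E2+Pg, against 6.36, 6.65, 6.78 and 5.68 in wild-type mice with E2. The wild-type groups were apart, and over both genotypes the rise was 1.74-fold (log2 0.80 ± 0.20, limma adjusted p = 0.0191). Without wild-type mouse L52 the adjusted p was 0.0516.

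Ror2 measured 9.36, 7.76, 8.20, 9.14 and 8.66 in C451A-ERα mice with E2+Pg, against 9.66, 9.46, 10.14, 9.83 and 9.48 in C451A-ERα mice with E2. It measured 8.04, 7.80, 8.55, 8.07 and 8.26 in wild-type mice with E2+Pg, against 7.92, 8.14, 9.38 and 8.80 in wild-type mice with E2. Here the C451A-ERα groups were apart and the wild-type groups overlapped. The log2 fold change was -1.09 ± 0.29 in C451A-ERα (limma adjusted p = 0.0534) and -0.42 ± 0.31 in wild-type (adjusted p = 0.502), with a difference between them of -0.67 ± 0.43 (adjusted p = 0.475). Over both genotypes it was -0.75 ± 0.21 (adjusted p = 0.0387), and this call was lost under 15 of 28 alternatives (highest adjusted p = 0.117).

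Fzd3, a Frizzled receptor known for its part in planar cell polarity, was called in C451A-ERα only. It measured 7.05, 7.12, 6.78, 7.06 and 7.03 in C451A-ERα mice with E2+Pg, against 6.60, 6.60, 6.23, 6.34 and 6.28 in C451A-ERα mice with E2, with no overlap. It measured 6.59, 6.77, 7.39, 6.68 and 6.97 in wild-type mice with E2+Pg, against 6.39, 6.69, 6.58 and 6.19 in wild-type mice with E2. The log2 fold change was 0.60 ± 0.15 in C451A-ERα (limma adjusted p = 0.0334) and 0.42 ± 0.16 in wild-type (adjusted p = 0.186), and the difference of 0.18 ± 0.21 did not pass (adjusted p = 0.672). Over both genotypes the adjusted p was 0.00645 at a fold change of 1.42, under the threshold. The C451A-ERα call was lost under 12 of 29 alternatives (highest adjusted p = 0.16).

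Tcf7l1, a nuclear TCF factor known mainly as a repressor of Wnt target genes, was called in both genotypes. It measured 7.59, 9.19, 8.20, 8.04 and 7.68 in C451A-ERα mice with E2+Pg, against 7.48, 6.96, 7.43, 7.19 and 6.95 in C451A-ERα mice with E2. It measured 8.11, 8.23, 8.42, 8.28 and 8.24 in wild-type mice with E2+Pg, against 7.10, 7.42, 7.07 and 7.15 in wild-type mice with E2. The groups did not overlap in either genotype, and L18 was again the highest. The log2 fold change was 0.94 ± 0.22 in C451A-ERα (1.92-fold, limma adjusted p = 0.0285) and 1.07 ± 0.24 in wild-type (2.10-fold, adjusted p = 0.0305). The C451A-ERα call was lost without 1 of the mice L61, L27, L76 or L51 and when only its 2 groups were fitted, and the wild-type call without 1 of L67, L62, L50, L44, L47 or L52 and with the slide as a block, while the call over both genotypes was kept throughout (log2 fold change 1.0 ± 0.16, adjusted p = 0.00103).

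Of the other transducers, Tcf7 rose by 0.48 ± 0.11 on the log2 scale over both genotypes (limma adjusted p = 0.00911) but stayed under 1.5-fold. Ctnnb1, which encodes β-catenin, was at 0.14, Axin1 at 0.22, Tcf7l2 at 0.38 and Lef1 at 0.02, and none of these was called. Secreted antagonists had no call with progesterone, and neither did the R-spondin receptors Lgr4, Lgr5 and Lgr6 or the ubiquitin ligases Rnf43 and Znrf3, which remove Frizzled receptors from the cell surface. Their mean log2 fold changes ran over -0.42 for Lgr5, 0.03 for Rnf43, 0.16 for Znrf3, 0.33 for Lgr4 and 0.42 for Lgr6.

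**Figure D2:**
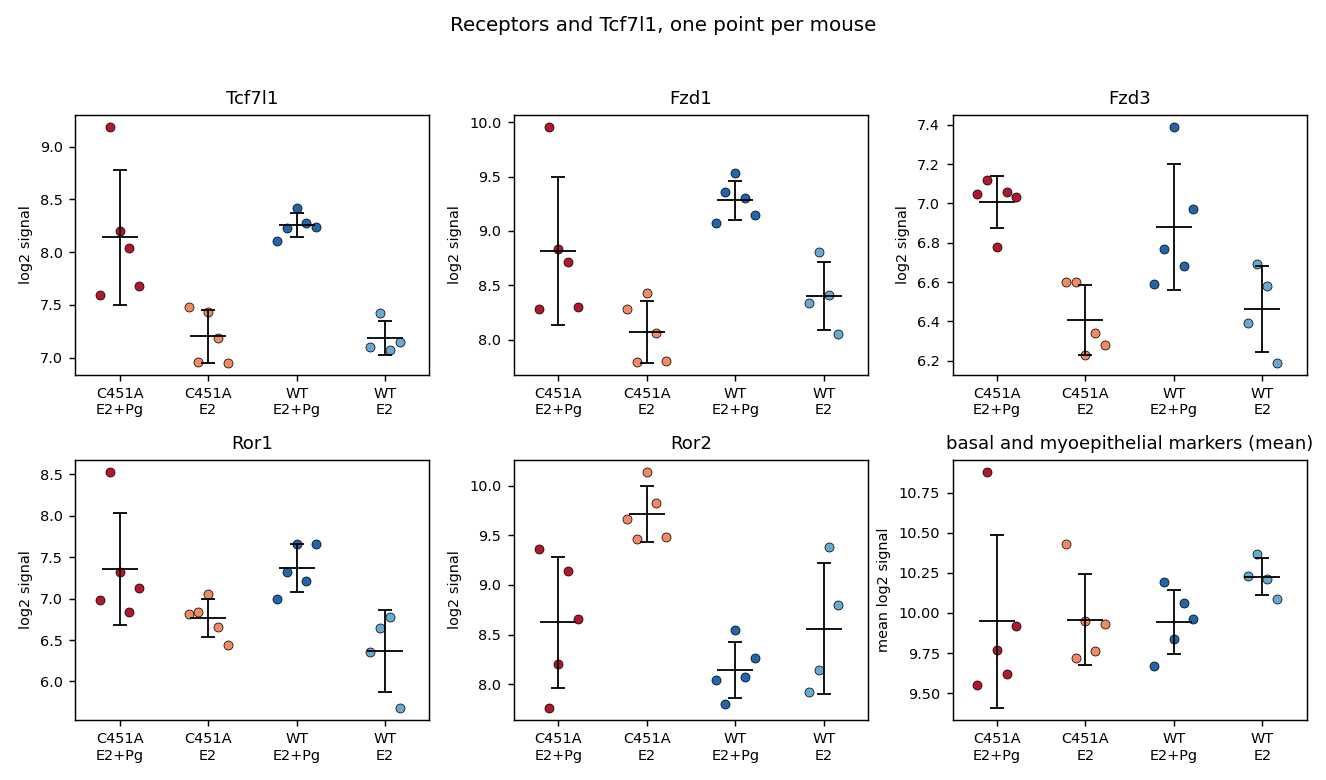
Quantile-normalised log2 signal (vertical axes) of Tcf7l1, Fzd1, Fzd3, Ror1 and Ror2 and the mean of 10 basal and myoepithelial markers in each mouse, by genotype and treatment. Points are mice and bars the mean ± SD (n = 5, 5, 5 and 4). In C451A-ERα with E2+Pg, mouse L18 is the highest for Tcf7l1, Fzd1, Fzd3, Ror1 and the basal marker mean (10.88). It is the lowest of that group for Ror2 (7.76).

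Markers of hormone-sensing luminal cells moved with progesterone in the same samples. Of 8 such markers, 7 were called lower over both genotypes, among them Esr1 (-0.99 ± 0.24), Pgr (-0.86 ± 0.18), Foxa1 (-0.96 ± 0.18) and Prom1 (-0.89 ± 0.16). The mean of the 8 lay between 10.76 and 12.07 in C451A-ERα mice with E2+Pg, against 12.52 and 12.84 with E2, and between 11.25 and 11.67 in wild-type mice with E2+Pg, against 12.18 and 12.78 with E2. None of 5 luminal progenitor markers was called, and their mean ran from 11.71 to 12.28 in C451A-ERα with E2+Pg, against 11.13 to 11.69 with E2, and from 11.49 to 12.02 in wild-type with E2+Pg, against 11.18 to 11.81 with E2. The part of either marker set in the Wnt gene values was not tested.

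Of 10 basal markers, Krt5 was called lower (-2.29 ± 0.49) and Tagln higher (0.72 ± 0.21) over both genotypes. The basal mean was 9.55 to 10.88 in C451A-ERα with E2+Pg, against 9.72 to 10.43 with E2, and 9.67 to 10.19 in wild-type with E2+Pg, against 10.09 to 10.37 with E2. Whether the basal markers bear on the Wnt gene values was not tested. When L4, L18 and L27 were left out together, a choice made after the values were seen, 6 Wnt pathway genes were called over both genotypes, 4 in C451A-ERα and 7 in wild-type, with 750, 112 and 795 of all 20802 genes.

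The genotype comparison asked whether Wnt pathway genes depended on palmitoylation of the receptor under each treatment. Within a single treatment no Wnt pathway gene was called by limma. Under E2, 10 of the 44 genes had an unadjusted p under 0.05, where 13.6% of all genes did, and 0.0288% of all genes were called. Under E2+Pg, 6 of the 44 had an unadjusted p under 0.05, where 18.3% of all genes did, and 0.00481% were called. Without L72, 5 of the 44 genes were called under E2, with 1045 of all 20802 genes. Under E2+Pg, 4 were called without L18, with 1100 of all genes, and 1 without L72 or without L21, with 32 and 232 of all genes.

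Averaged over both treatments, 6 of the 44 genes were called, with Fzd4 and Ror2 higher and Fzd2, Dkk3, Dkkl1 and Porcn lower in C451A-ERα (all genes 2.28%, with 0.356% higher and 1.93% lower). Leaving out wild-type mouse L67 or L52 (both E2) left none of the 44 called, with 12 and 5 of all genes against 475, and without any 1 of 9 other mice 2 or 3 were. Fzd2 and Dkkl1 were called in this mean under every alternative tried except without L67 or L52. With the slide as a block, 2 were called, with 249 of all genes. The median log2 fold change of the 44 genes was -0.09 under E2, 0.00 under E2+Pg and -0.01 over both, against 0.03, -0.03 and 0.01 for all genes, and over the 41 genes it was -0.08, 0.00 and -0.02. C451A-ERα and wild-type mice did not overlap for 7 of the 44 genes under E2 (3.51% of all genes) and for 3 under E2+Pg (2.6% of all genes).

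Some markers differed in the same genotype mean. Of the 8 hormone-sensing luminal markers, Cited1, a transcriptional co-regulator, was higher in C451A-ERα (log2 1.27 ± 0.33, limma adjusted p = 0.0418) and Prom1 lower (-0.66 ± 0.16, adjusted p = 0.0355), and the mean of the 8 had the ranges given above. Lor, the cornified envelope gene loricrin, was the 1 of 4 epidermal markers called (-1.27 ± 0.27, adjusted p = 0.0225), and the mean of these 4 ran from 6.03 to 7.51 in C451A-ERα mice with E2+Pg, against 6.42 to 6.96 in wild-type mice with E2+Pg, and from 6.27 to 6.67 in C451A-ERα mice with E2, against 6.43 to 7.34 in wild-type mice with E2. None of the 10 basal, 6 fibroblast, 5 luminal progenitor or 8 immune markers was called in it. The part of these markers in the Wnt gene values was not tested.

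Fzd2, a Frizzled receptor able to signal with and without β-catenin, was lower in C451A-ERα under both treatments. With E2+Pg it measured 7.01, 8.49, 7.50, 7.42 and 7.28 in C451A-ERα mice, against 9.11, 9.09, 8.84, 9.12 and 8.60 in wild-type mice. With E2 it measured 8.45, 6.86, 7.96, 6.87 and 7.17 in C451A-ERα mice, against 9.44, 9.40, 7.93 and 9.77 in wild-type mice. The groups were apart with E2+Pg, and with E2 the wild-type mouse L72, at 7.93, lay among the C451A-ERα mice. The log2 fold change was -1.41 ± 0.36 with E2+Pg (limma adjusted p = 0.114) and -1.67 ± 0.38 with E2 (adjusted p = 0.114). Over both treatments the fall was 2.91-fold (adjusted p = 0.0161, exact permutation p = 0.000283), and Fzd2 was lower in C451A-ERα on all 5 slides with E2+Pg and all 4 with E2.

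Dkk3, a divergent Dickkopf protein whose part in Wnt signalling is less settled than that of its relatives, had the largest fold change between genotypes of the 44 genes, with an SD of 1.71 in C451A-ERα mice and 0.59 in wild-type mice with E2+Pg, and of 1.82 and 1.42 with E2. With E2+Pg it measured 7.92, 12.00, 9.16, 9.24 and 7.71 in C451A-ERα mice, against 13.25, 12.60, 12.20, 12.72 and 11.67 in wild-type mice. With E2 it measured 11.81, 6.93, 10.34, 8.75 and 9.47 in C451A-ERα mice, against 12.83, 11.63, 9.53 and 12.12 in wild-type mice. The groups overlapped under both treatments, with L18 and L4 high among the C451A-ERα mice and L72 low among the wild-type mice. L18 and L4 also had the highest basal marker means of their groups, 10.88 and 10.43, and the part of this in their Dkk3 values was not tested.

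The Dkk3 log2 fold change was -3.28 ± 0.85 with E2+Pg (limma adjusted p = 0.116) and -2.07 ± 0.90 with E2 (adjusted p = 0.32). Over both treatments it was -2.67 ± 0.62 (adjusted p = 0.0281, exact permutation p = 0.00192), a call that was lost under 12 of 28 alternatives (highest adjusted p = 0.0823). The 3 Dkk3 probes did not give the same size. A second one, well above background on 18 arrays, gave -2.67 ± 0.54 over both treatments, and the exon-spanning probe printed above, well above background on 11, gave -0.78 ± 0.23, which did not pass (adjusted p = 0.083).

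Dkkl1, a secreted protein related to Dkk3 and known mainly from the testis, measured 11.57, 11.89, 11.93, 12.61 and 11.48 in C451A-ERα mice with E2+Pg, against 13.76, 13.56, 13.18, 13.80 and 12.67 in wild-type mice. With E2 it measured 13.14, 12.00, 13.09, 12.56 and 13.01 in C451A-ERα mice, against 13.60, 13.08, 13.22 and 13.90 in wild-type mice. The groups were apart with E2+Pg and overlapped with E2. With E2+Pg the Dkkl1 log2 fold change was -1.5 ± 0.27 (limma adjusted p = 0.0964) and with E2 -0.69 ± 0.29 (adjusted p = 0.287), and over both treatments -1.09 ± 0.20 (adjusted p = 0.0171). The difference between the treatments, -0.80 ± 0.39, did not pass (adjusted p = 0.472).

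Porcn, whose values stand above, was 1.80-fold lower in C451A-ERα over both treatments (log2 -0.85 ± 0.19, limma adjusted p = 0.0246). With E2 all C451A-ERα mice were below all wild-type mice, and with E2+Pg the wild-type mouse L21 lay within the C451A-ERα range at 8.15. Without L21, picked after the values were seen, the Porcn log2 fold change over both treatments was -0.95 ± 0.17 (adjusted p = 0.0054). Over all 28 alternatives it lay between -0.95 and -0.76. L21 also had the highest immune marker mean (9.40), and the part of this in its Porcn value was not tested. The call over both treatments was lost without 1 of L56, L67, L50, L58 or L52 and with the slide as a block (highest adjusted p = 0.0753). Wls, the other secretion gene, had a genotype log2 fold change of -0.02 ± 0.08.

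Fzd4, a Frizzled receptor that also binds Norrin and is known from retinal vessels, measured 8.65, 8.18, 8.29, 9.27 and 8.22 in C451A-ERα mice with E2+Pg, against 7.30, 7.05, 7.82, 7.51 and 8.91 in wild-type mice. With E2 it measured 9.29, 8.80, 9.76, 9.07 and 9.33 in C451A-ERα mice, against 7.47, 7.07, 9.33 and 7.95 in wild-type mice. The wild-type mice L21, whose immune marker mean was 9.40, and L72 lay within the C451A-ERα range. Over both treatments the log2 fold change was 1.05 ± 0.28 (limma adjusted p = 0.0468), and the second Fzd4 probe gave 0.86 ± 0.26 (adjusted p = 0.0881). The call was lost under 20 of 28 alternatives (highest adjusted p = 0.125), over which the log2 fold change lay between 0.9 and 1.36. Without L21, picked after the values were seen, it was 1.2 ± 0.25 (adjusted p = 0.0106). The part of the immune markers in the Fzd4 value of L21 was not tested.

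Ror2 was 1.76-fold higher in C451A-ERα over both treatments (log2 0.82 ± 0.21, limma adjusted p = 0.0453), and lost this call under 18 of 28 alternatives (highest adjusted p = 0.124). By treatment, its log2 fold change was 0.48 ± 0.29 with E2+Pg and 1.15 ± 0.31 with E2 (adjusted p = 0.357 and 0.126). All 5 C451A-ERα mice with E2, from 9.46 to 10.14, lay above the wild-type mice with E2, from 7.92 to 9.38.

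None of the 9 ligand genes that passed the filter was called between genotypes. Wnt5b was higher in all 5 C451A-ERα mice with E2+Pg than in any wild-type mouse with E2+Pg, although the lowest C451A-ERα mouse and the highest wild-type mouse both read 13.85 at 2 decimals, and its log2 fold change of 0.44 ± 0.16 did not pass (limma adjusted p = 0.196). Wnt7b, a luminal ligand picked after its values were seen, measured 11.56, 11.92, 11.16, 11.76 and 11.66 in C451A-ERα mice with E2, against 12.45, 12.31, 12.05 and 12.33 in wild-type mice with E2. Those groups were apart, and the log2 fold change of -0.67 ± 0.32 did not pass (adjusted p = 0.376). Rnf43 had a log2 fold change of 0.70 ± 0.20 over both treatments (adjusted p = 0.0665).

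**Figure D3:**
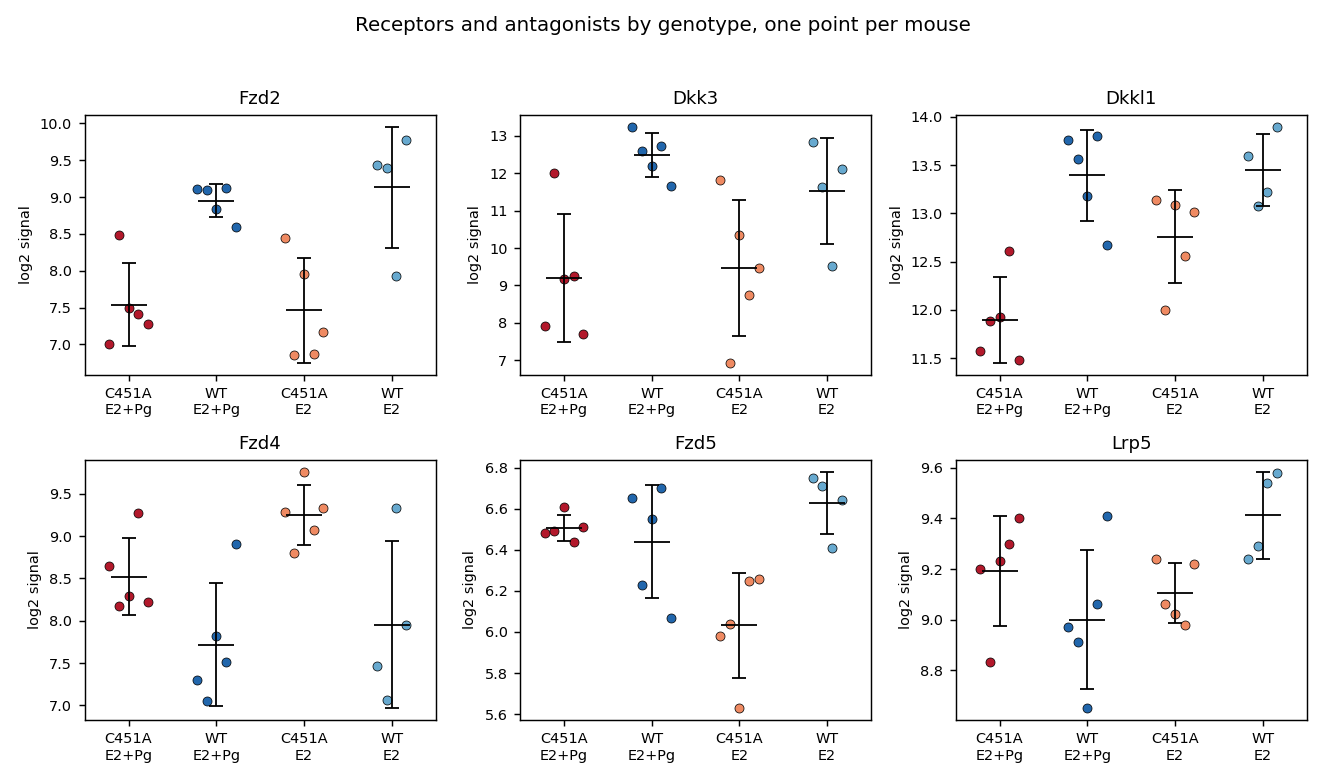
Quantile-normalised log2 signal (vertical axes) of Fzd2, Dkk3, Dkkl1, Fzd4, Fzd5 and Lrp5 in each mouse, with C451A-ERα left of wild-type within each treatment. Points are mice and bars the mean ± SD (n = 5, 5, 5 and 4); Fzd2 and Dkkl1 are apart by genotype with E2+Pg, and Dkk3 ranges from 7.71 to 12.00 in C451A-ERα mice with E2+Pg.

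The interaction asked whether progesterone acted differently in C451A-ERα and wild-type LCs. None of the 44 genes and 0% of all genes were called by limma. Fzd5 and Lrp5 had an unadjusted p under 0.05, where 9.36% of all genes did, and the median of the 44 genes was -0.01 and of the 41 genes -0.02, against -0.05 for all genes.

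Fzd5, a Frizzled receptor, measured 6.48, 6.49, 6.61, 6.44 and 6.51 in C451A-ERα mice with E2+Pg, against 5.98, 6.04, 5.63, 6.25 and 6.26 in C451A-ERα mice with E2. It measured 6.65, 6.23, 6.55, 6.70 and 6.07 in wild-type mice with E2+Pg, against 6.75, 6.71, 6.41 and 6.64 in wild-type mice with E2. The 5 C451A-ERα mice with E2 were below the wild-type mice with E2, and the remaining groups lay close together. The progesterone effect differed between genotypes by 0.66 ± 0.20 on the log2 scale (limma adjusted p = 0.472). The Fzd5 probe printed above gave 0.04 ± 0.24 for the same difference, and -0.16 ± 0.17 for C451A-ERα against wild-type under E2, where the brighter probe gave -0.60 ± 0.15.

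Lrp5, the co-receptor for β-catenin signalling, measured 9.20, 8.83, 9.23, 9.30 and 9.40 in C451A-ERα mice with E2+Pg, against 9.24, 9.06, 9.02, 8.98 and 9.22 in C451A-ERα mice with E2. It measured 8.97, 8.91, 8.65, 9.06 and 9.41 in wild-type mice with E2+Pg, against 9.24, 9.29, 9.54 and 9.58 in wild-type mice with E2. Only the E2 groups of the genotypes were apart, with their nearest mice both reading 9.24. The difference between the progesterone effects was 0.50 ± 0.20 (limma adjusted p = 0.472), and the second Lrp5 probe gave 0.68 ± 0.47.

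**Figure D4:**
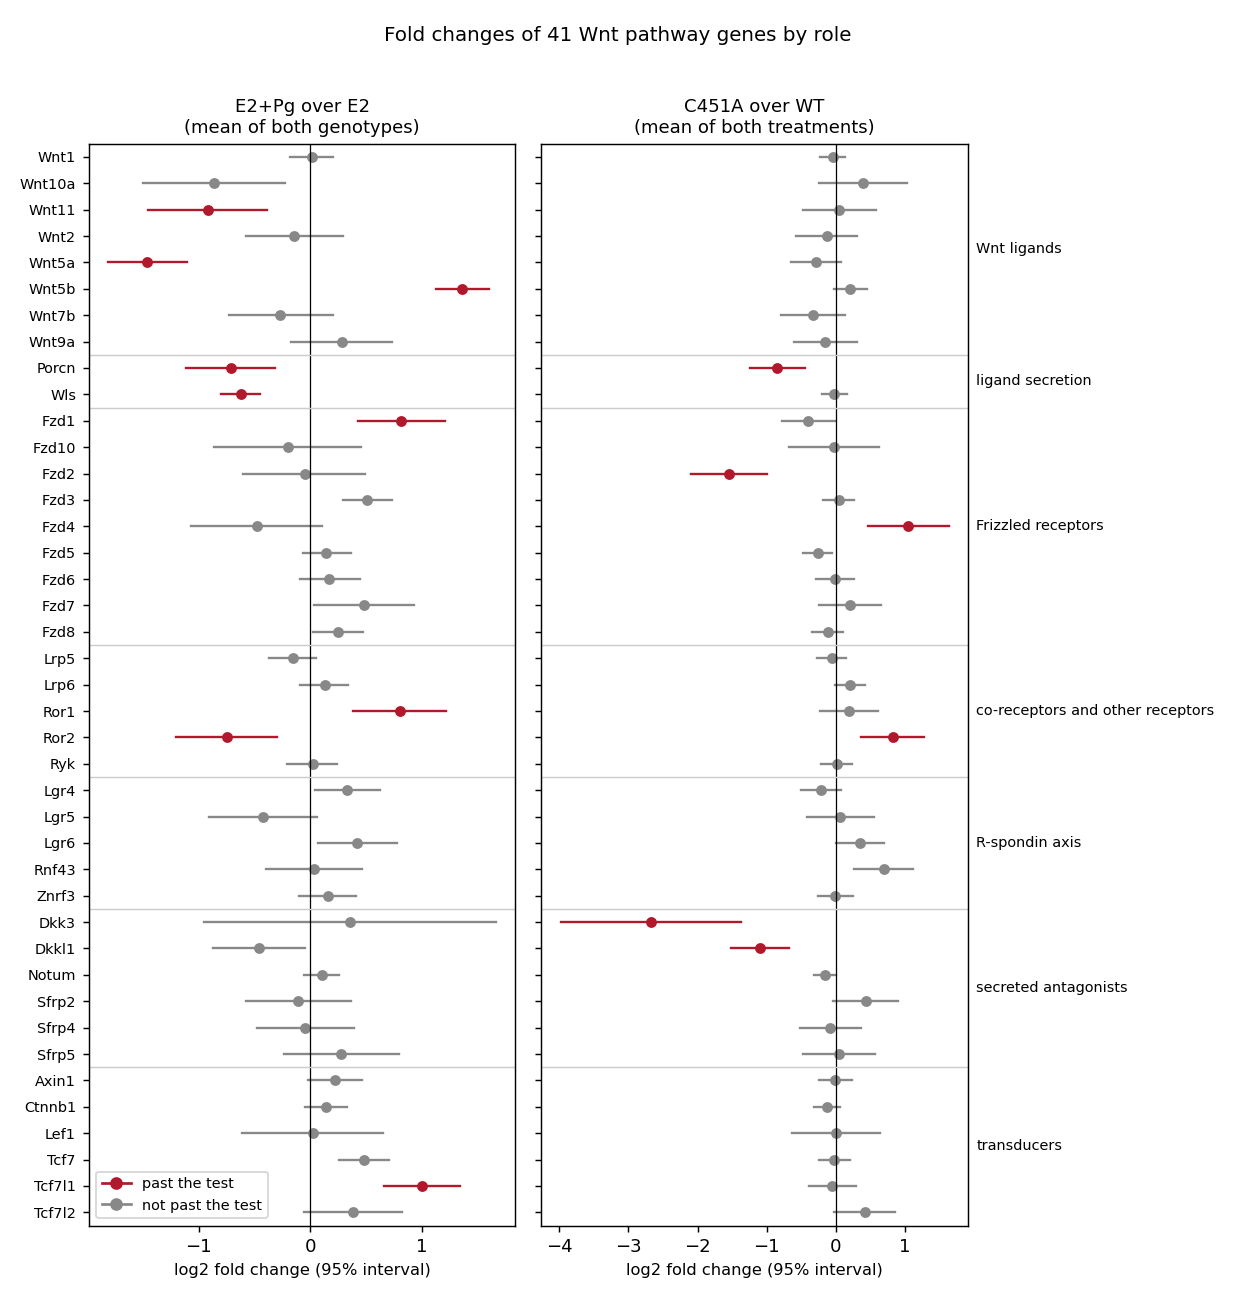
Log2 fold change with its 95% interval (horizontal axes) of 41 Wnt pathway genes by role, without Wif1, Sfrp1 and Wnt6, for E2+Pg over E2 averaged over genotypes (left) and C451A-ERα over wild-type averaged over treatments (right). Red marks genes called at adjusted p under 0.05 and over 1.5-fold, 9 on the left and 6 on the right, and Porcn and Ror2 are red in both.

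Other genes of the pathway were followed in 4 lists. Of 26 intracellular components tested, such as the Dishevelled, Gsk3 and Tle genes, none was called in any of the 7 comparisons. Between 1 and 6 of them had an unadjusted limma p under 0.05, where 1948 to 4362 of all 20802 genes did. None of 11 planar cell polarity genes and none of 11 known Wnt target genes was called either, with 0 to 3 and 0 to 5 under that unadjusted threshold. The 5 Wnt target genes, 3 higher and 2 lower, were in C451A-ERα against wild-type with E2+Pg (all genes 18.3%). In the interaction 3 Wnt target genes were under the threshold (all genes 9.36%). Of 12 other extracellular modulators, Cthrc1, a secreted glycoprotein linked to Wnt/Ror2 signalling, was lower with progesterone in C451A-ERα (-1.36 ± 0.34, limma adjusted p = 0.0361). In wild-type Cthrc1 was at 0.04 ± 0.36 (adjusted p = 0.97), and the difference between genotypes, -1.4 ± 0.49, did not pass (adjusted p = 0.472). Reck, a membrane protein that takes part in Wnt7 signalling, was higher with progesterone in wild-type (0.68 ± 0.15, adjusted p = 0.0366). In C451A-ERα Reck was at 0.49 ± 0.15 (adjusted p = 0.0733), and the difference of -0.19 ± 0.21 did not pass (adjusted p = 0.661).

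Promoters of the Wnt pathway genes were searched for hormone response elements and TCF/LEF motifs. The RefSeq windows used (GRCm38.p6) hold 250 bases before each start and 50 after, and 27 of the 44 genes matched, with 37 windows. Of the 16 genes given per mouse, Wnt7b apart, 10 matched, with 13 windows. The other 6 had no window, so the counts below do not cover them. On either strand, the estrogen response element AGGTCA then any 3 bases then TGACC was in 0 of the 37, against 0.0548% of 32851 windows in all. The progesterone response element AGAACA then any 3 bases then TGTTC was in 0 of the 37 (0.0487% of all), the TCF/LEF motif CTTTGAA in 0 (5.14% of all) and CTTTGAT in 2 (3.73% of all). Those 2 belong to Wnt5b and Wnt11. The 150 bases before each start are printed with the motif in capitals, read on the opposite strand for Wnt11. The Wnt5b stretch is chr6:119449387-119449536 on the minus strand, with the motif beginning 71 bases before the start, and the Wnt11 stretch is chr7:98834962-98835111 on the plus strand, with the motif 51 bases before it.
Wnt5b: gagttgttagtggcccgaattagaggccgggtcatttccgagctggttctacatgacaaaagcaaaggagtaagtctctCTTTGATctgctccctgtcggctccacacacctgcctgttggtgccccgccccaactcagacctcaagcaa
Wnt11: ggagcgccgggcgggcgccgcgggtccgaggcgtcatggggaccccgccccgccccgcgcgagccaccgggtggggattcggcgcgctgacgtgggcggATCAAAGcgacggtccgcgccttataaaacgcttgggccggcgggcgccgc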

How the data were processed

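RNA of sorted luminal cells was measured on 19 single-colour arrays. What the authors deposited for each array is the spot intensity read by Agilent Feature Extraction 10.10.1.1. A deposited table of 30207 probes gives log2 values after the authors' filter, batch correction and quantile normalisation, and served as an alternative. Groups came from the labels, and the slide from the array identifier.

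Spots marked as outliers (1370 of 59305) were removed, and no probe was saturated. Median intensity in log2 was quantile-normalised and tested with limma (version 3.58.1, R 4.3.3). A probe had to be well above background on 4 or more arrays, and each gene was represented by its brightest such probe. RefSeq gave current names to 33903 probes, and the others kept the name in the file. Group means were fitted to all 19 arrays (15 residual and 3 prior degrees of freedom), with Benjamini-Hochberg adjustment over 20802 genes. The procedure was tested on simulated data with independent normal noise for each gene. The simulation had no slide effects and no arrays of unequal quality, so it does not cover these features of the real arrays. The number of arrays limits the precision.

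Values per mouse are given for every gene called in a comparison, for Fzd2 and Dkk3, and for the 3 genes of smallest p where none was called. The genes, lists and tests were chosen with earlier results of these data known. Alternatives changed the background correction, the scaling, the filter, the probe rule, the weights, the slide block, the groups fitted and the mice.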

Additional observations from a re-analysis of the deposited data

Results flagged for a closer look

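In 5 of the 64 groups of mice examined for 16 genes given per mouse (Wnt7b was not examined), 1 mouse stood apart from the rest of its group by the gap to its nearest neighbour, where chance alone sets a mouse apart in about 1 of 20 groups. Wnt5a in mouse L58 (C451A-ERα, E2) was 10.59, against 11.47 to 11.69 in the other mice of that group, and Porcn in the same mouse was 8.34, against 8.83 to 9.03. Wls in mouse L27 (C451A-ERα, E2) was 10.63, against 10.18 to 10.23. Ror1 in mouse L18 (C451A-ERα, E2+Pg) was 8.53, against 6.84 to 7.32, and Fzd3 in mouse L61 of that group was 6.78, against 7.03 to 7.12.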

How the results depend on the processing

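Wnt5b and Wnt5a in C451A-ERα and over both genotypes, Wnt5b in wild-type, Wls in C451A-ERα, and Fzd1 and Tcf7l1 over both genotypes kept their call under each alternative tried, and none of the 33 fold changes recomputed, over 16 genes, changed sign. Leaving out 1 mouse at a time, between 0 and 5 Wnt pathway genes were called for genotype with E2 (0 to 1045 of all genes, against 6 with every mouse), 0 and 4 with E2+Pg (1 to 1100, against 1), and 0 and 7 over both treatments (5 to 994, against 475). For progesterone it was between 3 and 7 in C451A-ERα (200 to 972 of all genes, against 510), 1 and 7 in wild-type (28 to 578, against 273), and 5 and 9 over both genotypes (578 to 912, against 785). With array weights 8 were called for genotype with E2, 6 with E2+Pg, and 8 for progesterone in wild-type, with 2264, 2301 and 1643 of all genes, and 2558 of all genes for genotype over both treatments. The deposited value table gave 1 for genotype with E2 (132 of all genes), and the slide as a block 2 for genotype over both treatments (249 of all genes, and 74 for progesterone in wild-type). Fitting only the groups compared gave 3 for progesterone in C451A-ERα and 5 in wild-type (138 and 311 of all genes). Without the filter, 273 of all genes were called for genotype over both treatments and 181 for progesterone in wild-type, and with probes above background on all arrays 295 for that genotype mean. Without L4, L18 and L27 together, chosen after seeing the data, 2 were called for genotype with E2, 4 with E2+Pg and 7 for progesterone in wild-type (301, 3028 and 795 of all genes), with 2526 of all genes for genotype over both treatments and 112 for progesterone in C451A-ERα. In genotype within 1 treatment the other settings gave between 0 and 8 of all genes. The causes were not tested. The labels give each mouse its own number and pair no mice, and mice were matched only by slide, through the slide block. Groups of 4 or 5 mice, with no wild-type E2 mouse on 1 slide, limit what could be called.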
